A study of Homo sapiens with 6 samples.

Results

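The dual-specificity phosphatases that switch off MAP kinases were examined in REH, a human cell line grown from a B-cell precursor acute lymphoblastic leukaemia, after exposure to a compound directed at STAT3. The members were the 10 genes DUSP1, DUSP2, DUSP4, DUSP5, DUSP6, DUSP7, DUSP8, DUSP10, DUSP14 and DUSP16, each matched by its symbol, among the 26364 that the authors' deposited table lists. One group of 3 RNA-seq libraries came from cells kept for 6 h with 50 µM S3I-201 and the other group of 3 from cells kept for 6 h with DMSO, the solvent control. All libraries came from this single line in serum-containing medium, and the labels place the libraries of a group in independent experiments. The authors' deposited table pools the 6 libraries into 1 mean normalized count, 1 log2 fold change, 1 p-value and 1 adjusted p per gene, so no value per library and no overlap between the groups can be shown. The reference group is not stated there. A positive value was taken to mean more RNA with S3I-201, and all directions below would flip if DMSO were the numerator.

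MAP kinases such as ERK, JNK and p38 are active only while both a threonine and a tyrosine of their activation loop carry phosphate. The dual-specificity phosphatases remove both phosphates and so end the signal, and several of their genes are themselves induced by the kinases they act on. DUSP1, DUSP2, DUSP4 and DUSP5 encode inducible nuclear enzymes, DUSP6 and DUSP7 cytoplasmic enzymes that prefer ERK, DUSP8, DUSP10 and DUSP16 enzymes that prefer JNK and p38, and DUSP14 a small atypical member without the kinase-binding domain.

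The 2 tested phosphatases of the group that prefers JNK and p38, DUSP16 and DUSP10, rose with S3I-201. The abundant DUSP1, DUSP6 and DUSP7 and the atypical DUSP14 did not pass the test. DUSP1, grouped here as an inducible nuclear enzyme, also acts on JNK and p38. DUSP16 stood at 2.63-fold and DUSP10 at 1.89-fold. Of the 10 members, 6 had an adjusted p, 2 of these were higher and 0 lower at an adjusted p of 0.05 (the authors' DESeq2), and 3 had an unadjusted p under 0.05. Over all 11912 genes with an adjusted p, 5.90% passed, 4.45% as higher and 1.45% as lower, and 16.0% had an unadjusted p under 0.05. The 6 tested members had a median log2 fold change of 0.15 by the authors' deposited table, beside -0.02 over all tested genes. The remaining 4 members had few or no reads.

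Markers of the labelled cell type were abundant. The authors' deposited table gives 14 of 15 B-precursor markers a mean of 1000 or more normalized counts and lists VPREB1 at 0. EBF1 and VPREB3, with means of 2992 and 1065 there, had log2 fold changes of -0.20 and -0.25 without a p-value. Of the 12 B-precursor markers with an adjusted p, 1 was lower, CD24 at -0.61 on the log2 scale of the authors' deposited table (adjusted p = 0.00505, DESeq2), and 11 did not pass. Their median was -0.19, 1 of the 12 had a positive value and 4 had an unadjusted p under 0.05. Over all tested genes the median was -0.02, 1.45% were lower and 16.0% had an unadjusted p under 0.05. The part of these marker values in the results below was not tested. Of 15 markers of other cell types, 8 were listed at 0, including the T-cell genes CD3D and CD3E, while the myeloid genes MPO and CSF1R were detected, with means of 978 and 127 by the authors' deposited table. None of the 3 such markers that were tested passed by the authors' DESeq2 adjusted p, with 0 at an unadjusted p under 0.05. Size factors recovered from genes with single reads ran from 0.573 to 1.27, and the library totals they imply from about 6600000 to 14500000 counts. The smallest one belonged to a library of the group with positive sign, here read as S3I-201. Its part in any result was not tested, since the pooled values do not let a library be left out.

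DUSP16 dephosphorylates JNK and p38 and shuttles between nucleus and cytoplasm. The authors' deposited table gives it a mean normalized count of 225 over the 6 libraries, which with the fold change implies levels of 124 in DMSO and 326 in S3I-201. The authors' deposited table puts its log2 fold change at 1.39, with an implied SE of 0.25, a 95% interval of 0.91 to 1.87 and an adjusted p of 1.3e-06 (the authors' DESeq2). The implied SE was obtained by dividing the log2 fold change by the normal deviate that belongs to its p-value. By size DUSP16 was at place 63 of the 530 higher genes, and 99.5% of tested genes had a lower fold change. Its implied SE was larger than the median of 0.17 for genes with means of 100 to 1000, of which 4.19% were called higher. In bulk RNA, a change in the share of cells that express a gene and a change in RNA per cell cannot be told apart.

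DUSP10, the other tested phosphatase of the group that prefers JNK and p38, was the least abundant tested member. The authors' deposited table gives it a mean normalized count of 52.3, which implies 36.2 in DMSO and 68.3 in S3I-201. The authors' deposited table puts its log2 fold change at 0.91, with an implied SE of 0.24, a 95% interval of 0.44 to 1.39 and an adjusted p of 0.0045 (the authors' DESeq2). DUSP10 was at place 192 of the 530 higher genes. The deposited fold changes appear shrunken towards 0, so that of a weakly expressed gene such as DUSP10 can be understated. Among genes with means of 10 to 100, where the median implied SE was 0.26, 3.86% were called higher. With a minimum log2 fold change of 1 in size DUSP10 would no longer count as called, which leaves DUSP16 as the 1 member called. DUSP8, the third phosphatase of this group, had 2 reads over all 6 libraries, both in the same one, and was not tested.

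**Figure D1:**
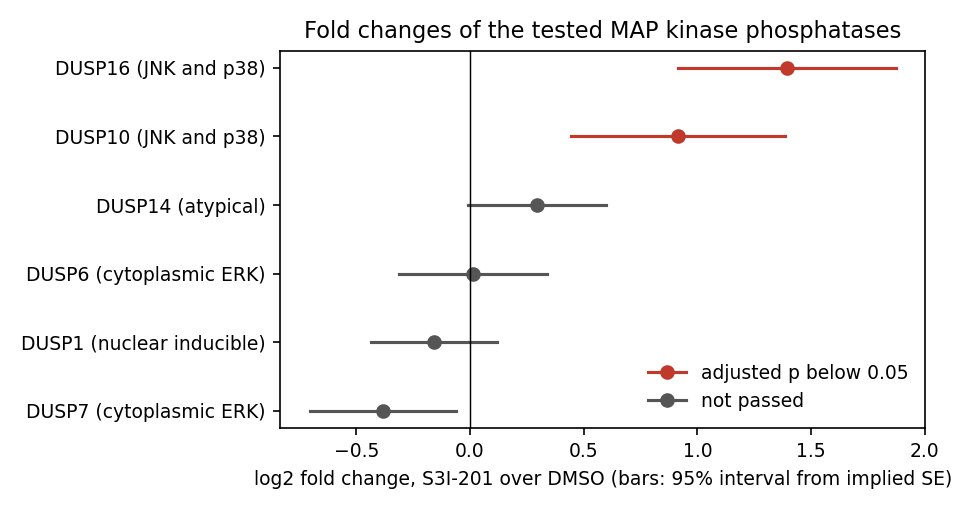
Log2 fold change of S3I-201 over DMSO (x axis) for the 6 tested phosphatases (y axis, with the group each belongs to); points are the authors' deposited values and bars the 95% interval from the implied SE. DUSP16 at 1.39 and DUSP10 at 0.91 lie above 0 with their whole interval, and DUSP14, DUSP6 and DUSP1 have intervals that hold 0. DUSP7 at -0.38 lies below 0 with its whole interval of -0.70 to -0.06.

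The upstream sequences of DUSP10 and DUSP16 are shown because these 2 genes rose together, and that of DUSP1 because it is the classic gene of the family with cAMP response elements and did not pass the test. They are taken from RefSeq (GRCh38.p14), read 5′ to 3′ on the minus strand up to the base before the annotated start, leaving out bases that a GENCODE 29 exon covers. DUSP10 has 2 RefSeq starts, of which the one further upstream is shown. The DUSP10 stretch is chr1:221742177-221742339, DUSP16 is chr12:12562864-12563113 and DUSP1 is chr5:172771196-172771445. Capitals mark matches on either strand to TGACG (the core of a cAMP response element), TGATGNAA (C/EBP-ATF composite element), TGANTCA (the binding element of FOS and JUN dimers), TGACNNNGC (antioxidant response element) and CCAAT, where overlapping matches run together.
DUSP10: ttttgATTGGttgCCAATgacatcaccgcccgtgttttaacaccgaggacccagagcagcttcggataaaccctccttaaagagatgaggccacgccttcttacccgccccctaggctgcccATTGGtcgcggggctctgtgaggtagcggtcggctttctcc
DUSP16: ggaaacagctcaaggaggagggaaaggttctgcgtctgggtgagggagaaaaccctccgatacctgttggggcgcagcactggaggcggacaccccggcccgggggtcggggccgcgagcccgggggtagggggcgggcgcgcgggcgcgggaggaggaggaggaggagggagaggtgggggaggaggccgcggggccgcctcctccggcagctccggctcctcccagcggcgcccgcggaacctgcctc
DUSP1: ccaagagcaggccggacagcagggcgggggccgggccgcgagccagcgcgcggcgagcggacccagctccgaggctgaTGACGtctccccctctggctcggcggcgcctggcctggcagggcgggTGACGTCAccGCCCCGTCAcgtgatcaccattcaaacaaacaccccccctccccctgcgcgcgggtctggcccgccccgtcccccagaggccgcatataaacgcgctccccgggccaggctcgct

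Motifs were searched in the 250 bases before each RefSeq start, and 8 of the 10 members were matched to such a window. Windows on chromosome 8, which carries DUSP4, were left out for the members, and DUSP5 was not matched. DUSP1 held the full element TGACGTCA, with its first printed base 125 bases before the start, which 1.65% of all 35116 windows hold, and 4 matches to TGACG, of which 2 lie within the full element. TGACG is found in 21.2% of windows. DUSP8, which was hardly detected, held TGACGTCA at 2 places, 118 and 74 bases before its start. The upstream DUSP10 window held 4 matches to CCAAT, a motif of 32.0% of windows, 3 of them in the printed stretch, and neither it nor the window of DUSP16 held TGACG, TGATGNAA (3.14% of windows), TGANTCA (6.57%), TGACNNNGC (10.9%) or the STAT element TTCNNNGAA (6.57%). The printed stretch of DUSP16 had 74.8% G and C, that of DUSP1 74.4% and that of DUSP10 57.1%. The lack of a match says only that these letters are not in this window. The DUSP16 window lies before RefSeq start 12562863, and its GENCODE gene, on the minus strand, begins at 12562383. The 250 bases before that GENCODE start were not searched.

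DUSP1, an early gene whose nuclear product acts on p38, JNK and ERK, was the most abundant member per length of exon. The authors' deposited table gives it a mean normalized count of 4293, or 2126 per kb of exon, with implied levels of 4530 in DMSO and 4056 in S3I-201. For DUSP1 the authors' deposited table has a log2 fold change of -0.16 (implied SE 0.14, adjusted p = 0.676, DESeq2), and the upper bound of its 95% interval of -0.44 to 0.12 lies below the values of DUSP16 and DUSP10. Among genes with means of at least 1000, 5.53% were called higher and the median implied SE was 0.15. The other 3 inducible nuclear members were at the limit of detection. DUSP2, first described in lymphocytes, had 2 reads, both in the same library, and DUSP4 and DUSP5 were listed at 0 in the authors' deposited table. A count of 0 over the 6 libraries allows up to 3 reads, or a mean normalized count of 0.48, which covers counting error only. The pseudogene DUSP5P1, named after its value was seen, stood at a mean normalized count of 14.2 and a log2 fold change of -0.18 by the authors' deposited table (adjusted p = 0.841, DESeq2).

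DUSP6, the ERK-selective enzyme of the cytoplasm whose mRNA is widely used as a readout of ERK signalling, had a log2 fold change close to 0. The authors' deposited table gives it a mean normalized count of 2947, with implied levels of 2932 in DMSO and 2962 in S3I-201. For DUSP6 the authors' deposited table has a log2 fold change of 0.01 (implied SE 0.17, adjusted p = 0.983, DESeq2), and the 95% interval of -0.31 to 0.34 corresponds to 0.806-fold to 1.27-fold. A GENCODE antisense gene overlaps 1789 bases of the exons of DUSP6, and the library method does not mark the strand, so reads of these 2 genes cannot be told apart.

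DUSP7, the close relative of DUSP6, had the lowest fold change of the family. The authors' deposited table gives it a mean normalized count of 738, with implied levels of 836 in DMSO and 640 in S3I-201. For DUSP7 the authors' deposited table has a log2 fold change of -0.38 (implied SE 0.16) and an unadjusted p of 0.0189, which did not pass adjustment (adjusted p = 0.178, DESeq2). DUSP14, the atypical member that acts in antigen receptor signalling of T cells, stood at a mean normalized count of 360 and a log2 fold change of 0.29 by the authors' deposited table (with implied SE 0.15 and adjusted p = 0.343, DESeq2). Its 95% interval of -0.01 to 0.60 overlaps that of DUSP10 and lies below that of DUSP16. The intervals of DUSP1, DUSP6 and DUSP7 lie wholly below those of both DUSP10 and DUSP16. Differences between genes were not tested, because that needs values per library.

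**Figure D2:**
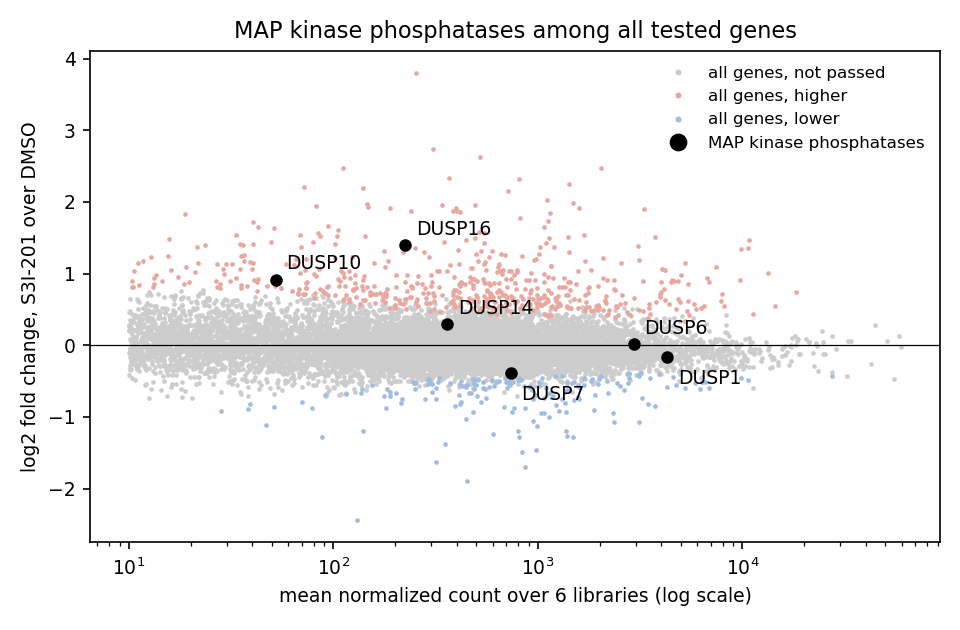
Log2 fold change (y axis) against the mean normalized count over 6 libraries (x axis, log scale) for the 11912 tested genes in the authors' deposited table, coloured by call at an adjusted p of 0.05, with the 6 tested phosphatases in black. DUSP16 and DUSP10 lie in the cloud of higher genes at means of 225 and 52.3, and the most abundant members, DUSP1 and DUSP6, lie near 0.

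Per length, the tested members spanned a wide range of levels. The mean normalized count per kb of exon (GENCODE 29 coding transcripts) was 2126 for DUSP1, 648 for DUSP6, 221 for DUSP7, 144 for DUSP14, 42.8 for DUSP16 and 19.5 for DUSP10. The 2 genes that rose were thus the 2 least abundant of the 6 tested members. The spread of each level over libraries is not known from the pooled values, so neighbours in this order were not tested. With S3I-201 the implied level of DUSP16 reached 62.0 per kb and that of DUSP10 25.5 per kb, both still below the 159 per kb of DUSP14.

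**Figure D3:**
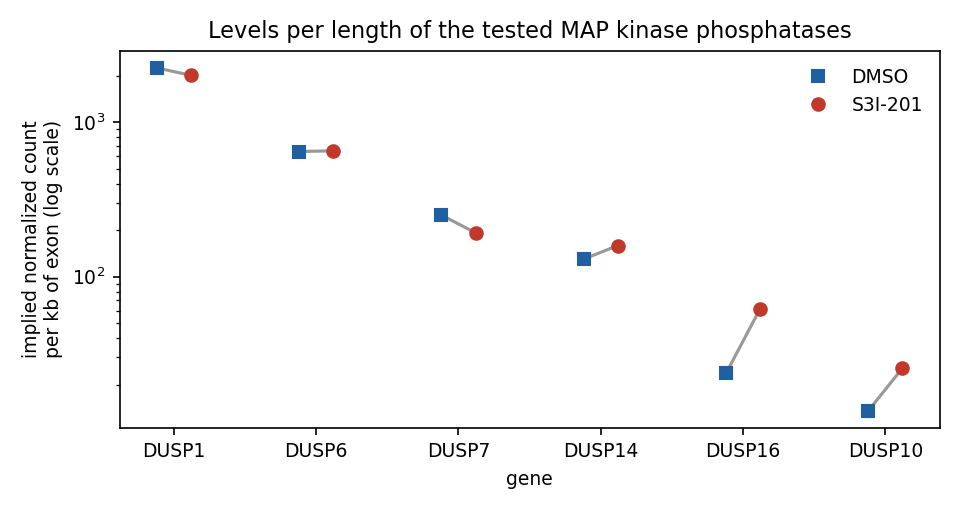
Implied normalized count per kb of exon (y axis, log scale) in DMSO (squares) and S3I-201 (circles) for the 6 tested phosphatases (x axis), computed from the pooled mean and the fold change in the authors' deposited table, with no error bar because no value per library is given. DUSP16 goes from 23.6 to 62.0 and DUSP10 from 13.5 to 25.5, while DUSP6 stays at 645 and 652.

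The genes lie on several chromosomes (hg38, whole gene). DUSP16 is on chromosome 12 from 12474210 to 12562383 with up to 7 exons, and DUSP10 on chromosome 1 from 221701424 to 221742176 with 4 exons. DUSP6 shares chromosome 12 with DUSP16, from 89347232 to 89353271. DUSP1 is on chromosome 5 from 172768090 to 172771195, DUSP7 on chromosome 3 from 52048919 to 52056550 and DUSP14 on chromosome 17 from 37489831 to 37513501. The nonamer ATTTATTTA, an AU-rich element found in short-lived mRNAs, occurs in the 3′ UTR of 3 of the 10 members, namely DUSP1, DUSP8 and DUSP10. Among tested genes it occurs in 2 of the 6 members, in 6.81% of 10755 genes with a coding gene model and in 9.09% of the 495 of these that were called higher. DUSP16 has none, and its 3′ UTR of 2623 bases holds the shorter ATTTA 5 times. Tested genes have a median of 2 in a median length of 1090 bases. These counts are not scaled to length, and the 3′ UTR of DUSP16 is the longer.

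A further list held 16 genes, other dual-specificity phosphatases and related catalytically dead proteins. Of these 16, 10 were tested and 0 passed in either direction by the authors' DESeq2 adjusted p, beside 5.90% of all tested genes. So few genes cannot show a lack of calls at that share. An unadjusted p under 0.05 was found for 0 of them, beside 16.0% of all tested genes, and their median log2 fold change was -0.08. By the authors' deposited table DUSP18 at -0.34 (adjusted p = 0.566, DESeq2), DUSP12 at 0.19 and DUSP15 at -0.20 had the smallest adjusted p-values. DUSP9, the third cytoplasmic enzyme that prefers ERK, was listed at 0 in the authors' deposited table.

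The MAP kinases, on which the phosphatases act, and the kinases that activate them were mostly without a call, as were tested genes at large. Over all tested genes 5.90% passed and 16.0% had an unadjusted p under 0.05. Of 12 tested MAP kinases 0 passed by the adjusted p of DESeq2 and 0 had an unadjusted p under 0.05. MAPK8, which encodes a JNK, stood at 0.17, MAPK12, a p38 isoform, at -0.25 and MAPK6, an atypical kinase, at 0.23, as log2 fold changes of the authors' deposited table. Of 7 tested MAP kinase kinases 0 passed by the adjusted p of DESeq2 and 3 had an unadjusted p under 0.05. The p38 activators MAP2K3 at 0.39 (adjusted p = 0.0538, DESeq2) and MAP2K6 at -0.67 (adjusted p = 0.0723, DESeq2) carry opposite signs in the authors' deposited table, and MAP2K5, which activates the large MAP kinase MAPK7, had 0.29 (adjusted p = 0.300, DESeq2). MAP2K3 passed when the median log2 fold change of genes of like abundance was subtracted (adjusted p = 0.0243).

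Of 22 tested MAP kinase kinase kinases 1 was lower and 21 did not pass, where 1.45% of all tested genes were lower. The lower gene was MAP3K5, which encodes the stress-activated kinase ASK1 upstream of JNK and p38, with a log2 fold change that the authors' deposited table puts at -0.53 (implied SE 0.16, adjusted p = 0.0197, DESeq2). Its call was lost with the stricter Benjamini-Yekutieli adjustment (adjusted p = 0.197). The authors' deposited table has MAP3K3 at 0.34, MAP3K13 at 0.49 and MAP3K4 at -0.23, none of them past the threshold. Of 9 tested scaffold genes 0 passed by the adjusted p of DESeq2 and 0 had an unadjusted p under 0.05. Of all tested genes 5.90% and 16.0% did. KSR1 stood at 0.41, LAMTOR2 at -0.35 and MAPK8IP2 at 0.38 by the authors' deposited table.

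Among 10 tested kinases that MAP kinases activate, RPS6KA2, a ribosomal S6 kinase downstream of ERK, was the 1 gene that rose, by 0.97 on the log2 scale of the authors' deposited table (with implied SE 0.19 and adjusted p = 3.87e-05, DESeq2). Not past the threshold were RPS6KA4 at -0.46, RPS6KA5 at 0.55 and MAPKAPK2 at -0.28 by the authors' deposited table. Of 6 tested other phosphatases that act on MAP kinases, PPM1D was the 1 that rose, by 1.04 on the log2 scale of the authors' deposited table (with implied SE 0.27 and adjusted p = 0.00335, DESeq2). PPM1D encodes a serine/threonine phosphatase of p38 and of DNA damage kinases and is a known p53 target. PPP2CB at 0.22, PPM1A at 0.27 and PTPN7 at 0.18 by the authors' deposited table were not past the threshold. The share of all tested genes that were higher was 4.45%.

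Genes that report on ERK output had 3 of 11 tested members higher, beside 4.45% of all tested genes, 0 lower and 8 not past the test, with a median log2 fold change of 0.30. With a minimum log2 fold change of 1 the higher members were 1, and at a threshold of 0.1 they were 5. FOSL1, a FOS-family transcription factor, rose by 1.41 on the log2 scale of the authors' deposited table (adjusted p = 6.75e-06, DESeq2). EPHA2, a receptor tyrosine kinase, was at 0.94 with a mean normalized count of only 13.2, and SPRY4, a feedback inhibitor of the pathway, at 0.78 by the authors' deposited table, with adjusted p-values of 0.00385 and 0.0192 (DESeq2). ETV5 at 0.45 (adjusted p = 0.0687, DESeq2), IER3 at 0.61 (adjusted p = 0.0659, DESeq2) and ETV4 at -0.33 by the authors' deposited table missed the threshold, although ETV5 passed when the median of genes of like abundance was subtracted (adjusted p = 0.0332).

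The list of immediate early genes that MAP kinases drive had 7 of 15 tested members higher, beside the same 4.45%. Of the rest, 0 were lower and 8 did not pass the test, and the median log2 fold change of the list was 0.38. Among the 8 were SRF, ELK1, ELK3 and ELK4, which encode factors that act upstream of early genes. At a threshold of 0.01, with the minimum log2 fold change of 1 and with the Benjamini-Yekutieli adjustment, 4 of the 15 were higher. FOSB rose by 1.14, EGR1 by 0.85 and FOS by 0.82 on the log2 scale of the authors' deposited table, next to ATF3, IER5 and JUN with values between 1.31 and 1.73. The remaining higher gene, KLF10 at 0.60 by the authors' deposited table (adjusted p = 0.0339, DESeq2), is named after its value was seen and is among the 3 that those settings lose. After subtraction of the median of genes of like abundance FOS no longer passed (adjusted p = 0.0530). JUNB at 0.38, IER2 at 0.24 and NR4A1 at 0.24 by the authors' deposited table were among the 8. DUSP1, an early gene of the same kind, had a negative value beside them. Over all 9 lists, 12 of 102 tested genes were higher and 1 was lower, where 4.45% of all tested genes were higher and 1.45% lower. The lists were compiled from textbook knowledge with earlier results of these data known. The difference from the share of all genes was therefore not tested.

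**Figure D4:**
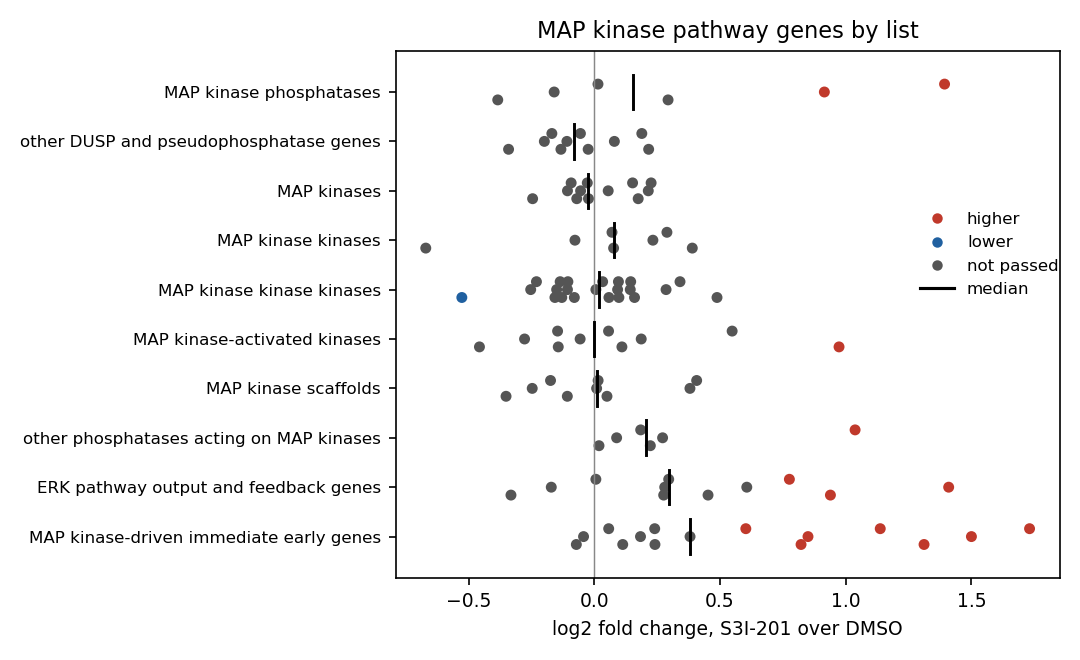
Log2 fold change of S3I-201 over DMSO (x axis) for the tested genes of the phosphatase family and of 9 lists of the MAP kinase pathway (y axis) in the authors' deposited table; each point is a gene coloured by call and the black bar is the median of the list. The kinases and scaffolds centre near 0, and the list of immediate early genes has 7 higher members and a median of 0.38.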

How the data were processed

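RNA-seq libraries of 2 groups, DMSO and S3I-201 with 3 libraries each, were made by a method that does not mark strand, per the labels' protocols. The submitters' processing notes name hg38, bcl2fastq 2.19, Trimmomatic, Bowtie2, Picard, featureCounts and DESeq2, without saying which step each served; the annotation and model formula were, in the sources used here, not given. The mean normalized count (a signal: counts over size factors), the log2 fold change and both the raw and the adjusted p-value are the authors' DESeq2 output, per the file headers. An adjusted p exists for 11912 of 26364 genes, all with means of at least 10.0. Among the others, 83 had a fold change but no p-value. Fold changes appear shrunken towards 0, so those of weakly expressed genes can be understated, and the implied SE belongs to such values. No unshrunken values were available to compare. A test on counts, planned for the case of values per library, was not applicable.

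Members and lists were chosen with earlier results of these data known, so lists were not tested and no p was adjusted over a list alone. A gene was called where its adjusted p was under 0.05. All members were named, with up to 6 called and 3 further genes of smallest adjusted p from each of 9 lists, and KLF10 was added after its value was seen. Implied levels solve the pooled mean and fold change for equal groups. Size factors came from the repeated steps in means under 0.6, whose sums explained 100% of 2067 genes within 1e-07. Lengths and 3′ UTRs came from GENCODE 29 (GRCh38). Alternatives were thresholds of 0.01 and 0.1, a minimum log2 fold change of 1, adjustment over every gene with a p-value, the Benjamini-Yekutieli adjustment, and subtraction of the median of each of 20 abundance bins. The code was tested on simulated data (Python 3.11.15, scipy 1.17.1, pandas 2.3.3).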

Additional observations from a re-analysis of the deposited data

How the results depend on the processing

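DUSP16 was called under each of the 6 alternatives run, of which the looser threshold of 0.1 could not remove a call. Its adjusted p of 1.3e-06 (DESeq2) and log2 fold change of 1.39 meant that the threshold of 0.01 and the minimum fold could not either. The alternative adjustments reuse the same p-values. DUSP10 was called under 5 of the 6 and missed the minimum log2 fold change of 1 in size, which left 1 member called higher. The members called lower were 0 under each of the 6. Over all genes, 530 higher and 173 lower calls became 156 and 22 with that minimum fold. The Benjamini-Yekutieli adjustment gave 320 and 65, and the lower calls were 79 at a threshold of 0.01 and 270 at 0.1. Of the 102 tested pathway genes, 6 were higher with the minimum fold, against 12. Those lower, 1 in the main comparison, were 0 at a threshold of 0.01, 0 with the minimum fold, 0 with the Benjamini-Yekutieli adjustment and 2 at a threshold of 0.1. MAP3K5, SPRY4, EGR1, FOS and KLF10 lost their calls at a threshold of 0.01 and with the Benjamini-Yekutieli adjustment. Of 46 named and tested genes, 46 kept their side of the threshold with adjustment over every gene with a p-value and 43 with the abundance trend removed, the 1 alternative that alters fold changes. No paired analysis was possible because the table holds no value per library, and for the same reason leaving out a replicate, DESeq2 against edgeR and a low-count filter were not run. Depth limits DUSP2, DUSP4, DUSP5 and DUSP8, which had at most 2 reads each.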

Other observations

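EGR2, an early zinc finger factor named after its value was seen, stood at a mean normalized count of 7.41 and a log2 fold change of 0.83 by the authors' deposited table, without an adjusted p although its unadjusted p was 0.000565 (DESeq2). PTPRR, a receptor-type tyrosine phosphatase of MAP kinases that was also chosen after its value was seen, had a mean of 6.62 and a log2 fold change of -0.32 there, again without an adjusted p. DUSP26 at a mean normalized count of 2.39 and DUSP27 at 2.42 in the authors' deposited table were likewise below the abundance at which the authors gave an adjusted p.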
